A study of Mus musculus with 82 samples.

Results

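The transcripts described here encode secreted products of the pancreatic acinar cell, measured on the arrays of a mouse plasma cell tumour study. Members were taken by gene name: Cpb1, Cpa1, Ctrb1, Prss2, Cel, Pnlip and Zg16. Of these 7 genes, 6 had a probe set annotated to them alone, with 11 probe sets among 22690; no probe set used here was listed for Pnlip, the pancreatic triglyceride lipase, and it has no value. The 6 measured genes were among 12394 genes tested.

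Every mouse was BALB/c.iMycEμ, a strain that carries a Myc gene inserted at the immunoglobulin heavy chain locus, was at least 8 weeks old, and received 0.5 ml of pristane, an oil that causes granulomas in the peritoneum, by intraperitoneal injection. No untreated mice were among the samples. For each of 2 studies (separate cohorts), cells positive for methyl green pyronin, a stain for plasma cells, were taken from frozen granuloma sections by laser microdissection ("captured"), and undissected sections ("whole") were processed beside them. Study 1 had 25 captured arrays of 15 specimens at days 7, 17, 33, 46 and 104 and 12 whole arrays of 8 specimens at days 7, 17, 33 and 104. Study 2 had 30 captured arrays of 15 specimens and 15 whole arrays of 15 specimens at days 7, 17, 33, 49 and 105. A specimen is 1 code in the labels, and arrays of 1 code and tissue type were averaged for tests. In study 1, 1 captured array with no code and 1 coded 003, kept apart from code 3 of the same day, each counted as a specimen, so the distinct specimens may be fewer. The labels do not say whether arrays of 1 code are separate sections, captures or repeat hybridisations, and nothing in the labels says that different codes were different mice, so p-values measure the spread between these specimens. The number of arrays limits precision.

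Acinar cells make digestive enzymes, pack them into zymogen granules and release them into the pancreatic ducts. A small set of genes takes up much of their RNA, so these transcripts are a sensitive mark of acinar RNA in a sample, and they are not known as products of plasma cells. Their joint transcription is known to depend on the PTF1 complex, which holds PTF1A and RBPJL and reads an E-box (CANNTG) together with a TTTCCC-type site. Cpb1 and Cpa1 encode carboxypeptidases, Ctrb1 a chymotrypsinogen, Prss2 a trypsinogen, and Cel the bile salt-dependent lipase. Zg16 encodes a lectin of the zymogen granule that is also made by intestinal goblet cells.

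Since PTF1 is known to control acinar genes together, promoter windows of the members are shown. Whether shared control had a part in the raised values was not tested. The windows are the 220 bases before the annotated start of each of the 5 members with a RefSeq entry (GRCm38.p6). They are given 5′ to 3′ on the gene's strand, with CANNTG and TTTCCC (or its reverse complement GGGAAA) in capitals. Zg16 is named only.
Cpb1, chr3:20275734-20275953, minus strand: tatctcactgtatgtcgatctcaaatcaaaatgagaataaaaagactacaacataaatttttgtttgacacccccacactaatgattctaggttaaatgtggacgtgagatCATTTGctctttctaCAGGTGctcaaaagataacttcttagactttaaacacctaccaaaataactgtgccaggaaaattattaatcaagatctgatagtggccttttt
Cpa1, chr6:30638998-30639217, plus strand: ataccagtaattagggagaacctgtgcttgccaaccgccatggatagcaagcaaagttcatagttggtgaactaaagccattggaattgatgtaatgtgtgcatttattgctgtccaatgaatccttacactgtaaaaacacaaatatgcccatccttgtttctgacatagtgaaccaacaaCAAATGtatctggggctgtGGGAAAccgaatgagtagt
Ctrb1, chr8:111691011-111691230, minus strand: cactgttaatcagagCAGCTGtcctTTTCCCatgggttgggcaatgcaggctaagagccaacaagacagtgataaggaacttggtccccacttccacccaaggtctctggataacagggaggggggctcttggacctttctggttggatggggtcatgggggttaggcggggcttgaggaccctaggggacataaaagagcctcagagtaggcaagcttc
Prss2, chr6:41521556-41521775, plus strand: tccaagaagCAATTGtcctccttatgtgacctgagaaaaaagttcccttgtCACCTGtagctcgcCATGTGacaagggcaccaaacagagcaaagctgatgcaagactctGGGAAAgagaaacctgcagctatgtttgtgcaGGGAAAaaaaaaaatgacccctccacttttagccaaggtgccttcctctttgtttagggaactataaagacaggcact
Cel, chr2:28563404-28563623, minus strand: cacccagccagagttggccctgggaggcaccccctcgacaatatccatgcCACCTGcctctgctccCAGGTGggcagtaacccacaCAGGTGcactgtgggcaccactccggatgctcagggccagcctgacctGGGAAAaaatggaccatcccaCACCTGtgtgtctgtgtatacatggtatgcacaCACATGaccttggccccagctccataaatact
CANNTG was found in 5 of 5 windows and in 61.7% of the 32851 RefSeq promoter windows of the same length. TTTCCC on either strand was found in 4 of 5 windows, all but that of Cpb1, and in 19.5% of all windows, and both motifs in 4 of 5 against 11.7%. Ctrb1 holds its only 2 matches close together, CANNTG at -205 and TTTCCC at -195 from the start, and Prss2 has 3 and 2 matches. The motifs do not overlap one another in these windows. A match is a run of letters and not a measured binding site.

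The acinar transcripts were low on most arrays and high on a few. A value is called raised here where it stood at least 2 log2 units, which is 4-fold, above the median of its own set; a set is 1 of the 4 combinations of study and tissue type, on the log2 intensities as deposited. No detection call was used, so where a set median lies at background a difference from it may understate the change. At least 1 member was raised on 7 of 82 arrays, from 5 specimens: 0 of 25 captured and 4 of 12 whole arrays in study 1, and 3 of 30 captured and 0 of 15 whole arrays in study 2. On 4 of the 7 arrays all 6 members were raised. The specimens picked out this way are described without a test, since the members' own values chose them. In sections, fewer acinar cells and less acinar RNA per cell cannot be told apart.

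**Figure D1:**
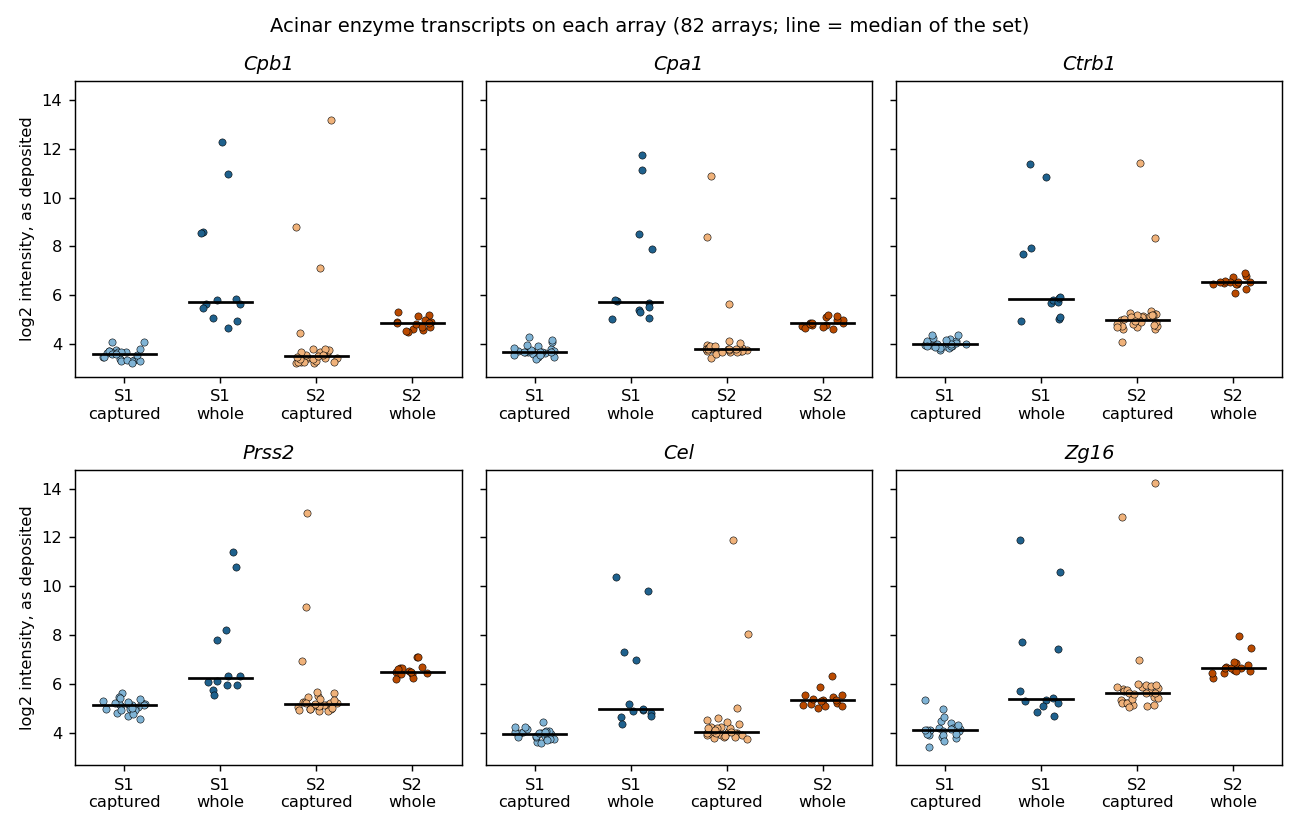
Log2 intensity as deposited (y axis) of the probe set that represents each member on every array, by study and tissue type (x axis; S1, study 1; S2, study 2); the line is the median of the set. In each panel a few study 1 whole and study 2 captured arrays stand well above the rest, such as 13.16 for Cpb1, while study 1 captured and study 2 whole arrays form narrow bands.

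In study 1 whole sections, specimen 16 of day 33 had the highest value of every member. Its Cpb1 value was 12.28, its Cpa1 value 11.75, its Ctrb1 value 11.37, its Prss2 value 11.39, its Cel value 10.38 and its Zg16 value 11.88. These stood 5.17 to 6.57 log2 units above the set medians, and all 11 member probe sets were raised. This specimen has 1 whole array and no captured array under its code. The other whole specimens of day 33, codes 5 and 14, had Cpb1 at 5.79 and 5.63, within the range of the arrays without a raised member, 4.66 to 5.84.

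In specimen 4687 of day 104, 1 of 3 whole arrays carried the signal. Cpb1 was 10.98 on the first array and 5.07 and 4.66 on the other two. Cpa1 was 11.11 on the first and 5.51 and 5.30 on the others, and Zg16 was 10.57 against 5.21 and 4.67. For each of the 6 members the first array was higher than either other array by between 4.82 and 6.32 log2 units, whereas the other two arrays differed from each other by at most 0.80. The 5 captured arrays of the same code had Cpb1 between 3.54 and 4.09. The average of the 3 arrays is not raised by the 2-unit rule (Cpb1 6.90), so a count over specimen averages leaves this array out.

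Specimen 3 of day 7 showed a smaller rise on both of its whole arrays, which the labels mark A and B. Cpb1 was 8.60 and 8.54, Cpa1 8.52 and 7.88, Ctrb1 7.92 and 7.68, and Cel 6.98 and 7.29. The members stood 1.57 to 2.89 log2 units above the set medians over both arrays, with 5 of 6 members raised on A and 4 of 6 on B. The other whole specimen of day 7, code 1, had Cpb1 at 4.95, and the captured array of code 3 had it at 3.33.

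In study 2 the signal lay in captured cells. Specimen 1 of day 7 had Cpb1 at 13.16 and 8.77 on its 2 captured arrays, Cpa1 at 10.90 and 8.39, Ctrb1 at 11.41 and 8.34, Prss2 at 13.01 and 9.13, Cel at 11.89 and 8.05, and Zg16 at 14.22 and 12.83. All 6 members were raised on both, by 6.41 to 9.67 log2 units over the set medians on the first and by 3.34 to 7.21 on the second. By the probe sets that represent the members, the arrays differed from each other by 4.39 log2 units for Cpb1, 2.51 for Cpa1 and 1.39 for Zg16. These probe sets did not shift by 1 common amount. The Zg16 difference depends on the probe set. Its higher array and the average of both were 14.22 and 13.53 by 1434137_x_at, 13.26 and 11.33 by 1428359_s_at, and 9.16 and 6.88 by 1428358_at. The whole section under the same code, marked C where the captured arrays are marked B, was at the level of its set, with Cpb1 at 4.62 against a set median of 4.84 and Zg16 at 6.52 against 6.63.

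The 7th array, the second captured array of specimen 2 of day 49 in study 2, stood apart over all genes. Cpb1 was 7.10 on it and 3.69 on the first array of the same code, Prss2 was 6.93 against 5.10, and Ctrb1 was lower, 4.08 against 5.28. Only Cpb1 passed the 2-unit rule. On this array 13.9% of all genes were raised, the plasma cell list had a median 3.62 log2 units below its set, and the difference between 3′ and 5′ control probe sets, a sign of RNA length, was 0.46 against a mean of 4.14 ± 0.90 (SD, n = 30 arrays); their part in the Cpb1 value was not tested.

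**Figure D2:**
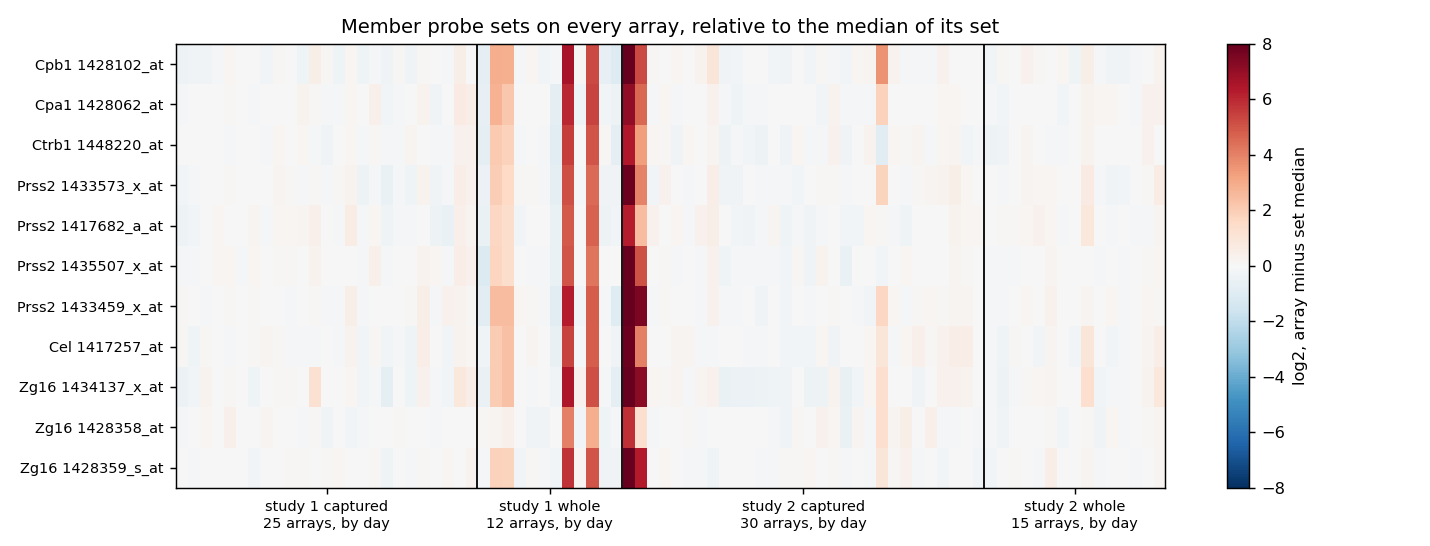
Each of the 11 member probe sets (rows) on all 82 arrays (columns, ordered by study, tissue type and day), as log2 intensity minus the median of the set; the colour scale ends at 8. Dark columns mark the raised arrays; Zg16 1428358_at was raised less than the other Zg16 probe sets, at 2.88 against 5.19 for 1434137_x_at in array 1 of specimen 4687.

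Arrays that share a code could differ widely in these transcripts. Over 36 pairs of arrays that share a code and tissue type, 32 had every member within 1.5 log2 units, with a median mean difference of 0.21. The other 4 pairs were the 2 that set array 1 of specimen 4687 against its other arrays, the pair of study 2 day 7 specimen 1 and the pair of study 2 day 49 specimen 2. Among arrays without a raised member, just 2 values stood over 1 unit above their set median, both of Zg16: 5.33 in a captured array of specimen 14 of day 33 in study 1, and 7.95 in the whole section of specimen 3 of day 33 in study 2.

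The probe sets of 1 gene differed in how far they stood above their set medians, and some passed the 2-unit rule on an array where others did not. Prss2 has 4 probe sets, and in specimen 16 they stood 5.17 (1433573_x_at), 4.92 (1417682_a_at), 5.05 (1435507_x_at) and 6.25 (1433459_x_at) log2 units above their set medians. Several carry the suffixes that mark probes shared between sequences, so other trypsinogen transcripts may be read by them. On the second day 7 array of study 2, Zg16 stood at 7.21 by 1434137_x_at, 6.33 by 1428359_s_at and 1.30 by 1428358_at.

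Other acinar genes, from a list of 32 measured genes, were raised on the same arrays. On specimen 16, 18 of 32 were raised, where 0.21% of all genes were; on array 1 of specimen 4687, 16 of 32, where 0.242% of all genes were; and on the 2 arrays of study 2 day 7 specimen 1, 26 and 16 of 32, where 2% and 0.387% of all genes were. On these 4 arrays 13 of the 32 were raised each time, among them Reg1, Dmbt1, Ctrl, Rnase1, Pnliprp1, a lipase relative, Clps, the colipase, and Cela1, Cela2a and Cela3b, elastases. On A and B of specimen 3, 0 and 1 (Dmbt1) of 32 were raised, where 0.121% and 0.113% of all genes were, although Reg1 stood 1.78 and 1.92 units above its median. On the day 49 array of study 2, where 13.9% of all genes were raised, those raised among the 32 were Gata4, Cela3b, Ptf1a, Reg1, Nr5a2, Cckar, Serpini2 and Amy1. On the 75 arrays without a raised member at most 1 of the 32 was raised.

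The factors that control acinar genes did not follow the enzymes in the whole sections. Ptf1a was 3.92 and 3.87 in specimen 3, 4.02 in specimen 16 and 4.16 in array 1 of specimen 4687, each within 0.28 of the set median. It was 8.83 and 4.32 on the 2 arrays of study 2 day 7 specimen 1, 5.11 and 0.60 above the set median, and Nr5a2, a nuclear receptor of acinar cells, was 4.96 and 2.03 above. Rbpjl was raised on none of these arrays. Bhlha15, which acinar cells share with plasma cells, and Amy1, an amylase gene, were also raised on none of the 4 arrays with all members raised. On the day 49 array of study 2, Ptf1a stood 3.78, Nr5a2 3.11, Amy1 2.36 and Rbpjl 0.86 above their set medians, and Bhlha15 differed from its own by -4.36. The amylase genes Amy2a5, Amy2a1 and Amy2b were not measured, and Amy1 does not stand in for them.

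Markers of neighbouring tissues differed between the arrays with raised members. In the 4 study 1 arrays 0 of 14 islet, 0 of 10 duct, 0 of 14 intestinal, 0 of 9 stomach and 0 of 11 liver genes were raised. On these arrays 0.113% to 0.242% of all genes were raised. At such shares a list this short would often have none, so these counts do not show that a tissue was absent. On the first array of study 2 day 7 specimen 1, 2% of all genes were raised. There 4 of 10 duct genes (Onecut1, Krt8, Cdh1 and Muc1), 2 of 14 intestinal genes (Reg3b and Reg3g) and 1 of 9 stomach genes (Tff2) were raised. Of islet genes 0 of 14 were, and the plasma cell list had a median 1.80 units below its set. On the second array Reg3b alone of these was raised, where 0.387% of all genes were, and the plasma cell median was 0.03 above its set. On the day 49 array 7 of 14 islet, 3 of 10 duct, 3 of 14 intestinal, 2 of 9 stomach and 5 of 11 liver genes were raised, where 13.9% of all genes were. The labels call all of this tissue oil granuloma; whether pancreas lay beside or within these sections was not tested.

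**Figure D3:**
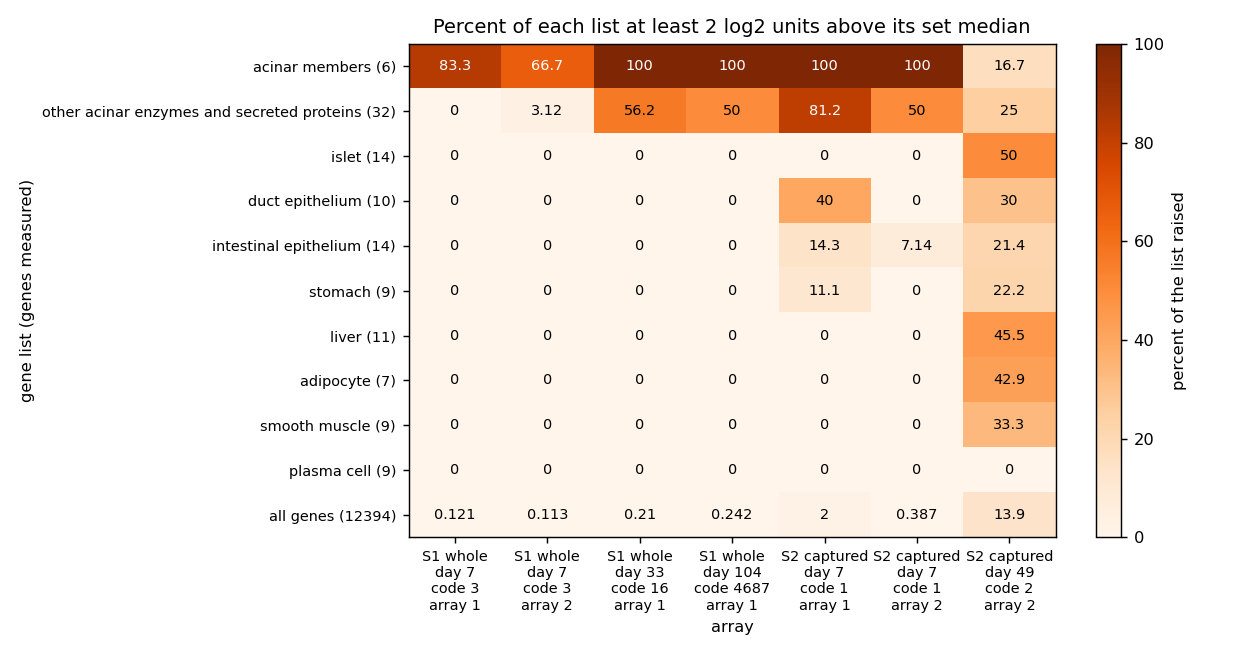
Percent of the measured genes of each list (rows, number of genes in brackets) that stood at least 2 log2 units above their set median on each of the 7 arrays (columns; S1, study 1; S2, study 2). The acinar lists fill on the 4 arrays where all members were raised while the islet list stays at 0; on the day 49 array of study 2 most lists, and 13.9% of all genes, were raised.

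The genes whose pattern was most like the members' mean, by the mean over the 4 sets of the Pearson correlation across specimens (53 specimen averages, given as a description), were led by Sycn, a protein of the zymogen granule membrane, at 0.94. Cela2a followed at 0.89, then Serpini2 at 0.89, Ctrc at 0.88, Reg2 and Cuzd1 at 0.87, Gm17546 and Pnliprp1 at 0.83, and Tpsg1 and Cela3b at 0.82. Of these 10 genes, 8 were on the acinar list. The middle 95% of all 12388 other genes lay between -0.44 and 0.63. Points within a set share the array, its amplification and the few raised specimens.

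Captured cells were compared with whole sections to ask what separates the dissected cells from the granuloma. The tests used limma on specimen averages after quantile normalization over all arrays, which moves every array to 1 common distribution, with days weighted equally, the specimen code as a random block and Benjamini-Hochberg adjustment over 12394 genes. In study 1, 5 of 6 members were lower in captured cells and 0 were higher, where 23.2% of all genes were lower and 31.7% higher. In study 2, 2 of 6 were higher and 0 lower, where 35.6% of all genes were higher and 30.2% lower.

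In study 1, as deposited, Cpb1 was 3.23 at the lowest, 3.51 at the median and 3.79 at the highest in captured cells (n = 15 specimens), and 4.95, 5.76 and 12.28 in whole sections (n = 8). By the probe set that represents each gene, specimen averages did not overlap for Cpb1, nor for any other member, on this scale. Array medians were also lower in captured arrays on it. Prss2 1417682_a_at (captured up to 4.90, whole from 4.37) and Zg16 1428358_at (3.91 and 3.45) did overlap. On the quantile scale the averages of Prss2 (captured up to 6.09, whole from 5.50), Cel (4.65 and 4.47) and Zg16 (5.26 and 4.85) overlapped. The share of all genes without overlap was not counted. After quantile normalization Cpb1 was lower in captured cells by 2.90 ± 0.72 (SE) log2 units (limma, adjusted p = 0.000868), and lower in 5 of 5 specimens that had both. Cpa1 was 3.47, 3.73 and 3.90 in captured cells and 5.02, 5.73 and 11.75 in whole sections, also with no overlap, and its normalized difference was -2.65 ± 0.62 (limma, adjusted p = 0.000467). For Ctrb1 the difference was -2.21 (limma, adjusted p = 0.000877), for Cel -1.60 (0.0157) and for Zg16 -1.77 (0.0317). By its other probe sets Zg16 differed by -0.53 (1428358_at, limma, adjusted p = 0.225) and -1.72 (1428359_s_at, 0.0272). Prss2 differed by -1.16 (limma, adjusted p = 0.0829), which did not pass; its probe sets 1435507_x_at and 1433459_x_at did, at -3.21 and -3.41 (adjusted p = 1.98e-05 and 0.000194), while 1417682_a_at did not, at -0.91 (0.0947).

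The study 1 differences were smaller without the raised arrays. Without the 7 arrays with raised members, a choice made on the members' own values, Cpb1 was lower in captured cells by 1.37, Cpa1 by 1.22, Ctrb1 by 0.91, Cel by 0.41 and Zg16 by 0.42, and Prss2 differed by 0.03. The count of lower members without specimen 3 of day 7 was 3, with Cel at -1.28 (adjusted p = 0.0754) and Zg16 at -1.44 (0.114). Without specimen 16 of day 33, Zg16 stood at -1.24 (limma, adjusted p = 0.0589), and without specimen 12 of day 17 at -1.78 (0.0558). Neither Cel nor Zg16 passed with the specimen as a fixed replicate block (limma, adjusted p = 0.0712 and 0.143) or with each array centred on its median (0.0529 and 0.053).

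In study 2, as deposited, Zg16 was 5.13 at the lowest, 5.61 at the median and 13.53 at the highest in captured cells (n = 15 specimens) and 6.25, 6.63 and 7.95 in whole sections (n = 15). After quantile normalization it was higher in captured cells by 1.21 log2 units (limma, adjusted p = 0.0312), and in 14 of 15 pairs. Prss2 was higher by 0.93 (limma, adjusted p = 0.0425), in 13 of 15 pairs. The other Zg16 probe sets did not pass, at 0.28 (1428358_at, limma, adjusted p = 0.346) and 0.71 (1428359_s_at, 0.181). Of the other Prss2 probe sets, 1417682_a_at passed, at 0.91 (limma, adjusted p = 0.0151). The probe sets 1435507_x_at and 1433459_x_at did not, at 0.69 (0.144) and 0.65 (0.277). Cpb1 differed by 0.72 (0.211), Cpa1 by 0.77 (0.12), Ctrb1 by 0.56 (0.206) and Cel by 0.65 (0.146), none past the threshold in limma. The median pair shows a much smaller shift than the mean: 0.09 for Cpb1, where specimen 1 of day 7 differed by 7.35, and 0.71 for Zg16, where it differed by 8.37. Without that specimen neither call held, with Zg16 at 0.73 (adjusted p = 0.101) and Prss2 at 0.56 (0.143). Leaving out any 1 of 10 study 2 specimens took the Prss2 call away, and any 1 of 6 the Zg16 call.

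The direction in study 2 depends on the scale. Deposited array medians ran from 5.31 to 5.64 in captured and from 7.11 to 7.34 in whole arrays of this study, and from 4.97 to 5.11 and 5.73 to 5.83 in study 1. On the values as deposited all 6 members were lower in study 2 captured cells, by 0.63 to 1.25 log2 units, and 3 of them passed, where 97.3% of all genes were lower. With each array centred on its median, all 6 were higher and 5 of 6 passed, where 55.7% of all genes were higher. In study 1 every one of these 3 scales gave lower values in captured cells for all 6 members.

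**Figure D4:**
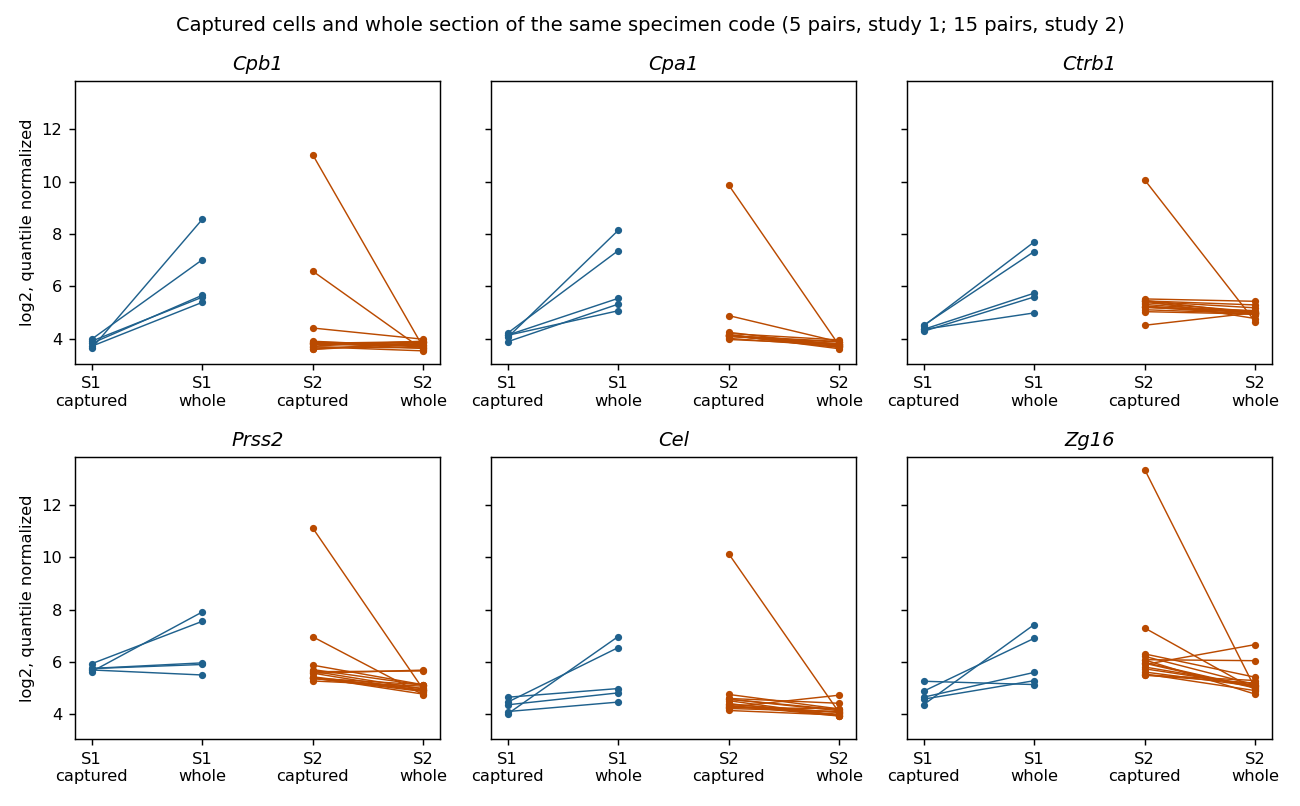
Quantile-normalized log2 values (y axis) of each member in captured cells and the whole section of the same specimen code, 1 line a code (x axis; S1, study 1, 5 pairs; S2, study 2, 15 pairs). The study 1 lines mostly rise from captured to whole, and 1 study 2 line, specimen 1 of day 7, falls from far above the rest.

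Exact permutation tests of each single value, two-sided and not adjusted, were run as an alternative on the same normalized specimen averages: 12 in all. In study 1, with tissue labels exchanged within days (9000 arrangements), Cpb1, Cpa1 and Ctrb1 each gave the smallest p this design allows, 0.000111, while Cel gave 0.000222, Zg16 0.000333 and Prss2 0.0359. This exchange ignores the 5 codes shared by both tissue types; with the specimen as a fixed replicate block, Prss2 had limma's adjusted p = 0.214. In study 2, with signs exchanged over 15 pairs, Cpa1 was higher in 15 of 15 pairs (exact p = 6.1e-05, the smallest possible) and Cpb1 in 10 of 15 (exact p = 0.128). The exact p was 0.000244 for Prss2, 0.0011 for Zg16, 0.00214 for Cel and 0.00488 for Ctrb1, so that 5 of 6 members lay under 0.05 here where 2 of 6 passed in limma. These rest on the quantile scale, on which small shifts between tissue types with different array medians are counted.

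An interaction test, over days 7, 17, 33 and 104 (105 in study 2), asked whether the tissue difference itself differed by study. Captured minus whole was larger in study 2 than in study 1 for 6 of 6 members, where 19.7% of all genes were larger and 22% smaller. The difference was 3.53 ± 0.92 (SE) log2 units for Cpb1 (limma, adjusted p = 0.00217), 3.49 for Cpa1 (0.000532), 2.90 for Ctrb1 (0.00106), 2.04 for Prss2 (0.0228), 2.31 for Cel (0.00885) and 2.96 for Zg16 (0.00751). Of the other Prss2 and Zg16 probe sets, only Zg16 1428358_at did not pass, at 0.84 (limma, adjusted p = 0.15). On the values as deposited 3 of 6 passed (Cpb1, Cpa1 and Ctrb1), where 1.91% of all genes were larger. Without the 7 arrays with raised members the difference was 1.39 for Cpb1, 1.58 for Cpa1, 1.20 for Ctrb1, 0.38 for Prss2, 0.66 for Cel and 1.00 for Zg16. With the 3′ minus 5′ control difference, a sign of RNA length, as a covariate 2 of 6 passed (Cpb1 and Cpa1), where 4886 of 12394 genes passed in either direction. With the specimen as a fixed replicate block Prss2 did not pass (limma, adjusted p = 0.0668). The studies were separate cohorts, and study and array level cannot be told apart.

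**Figure D5:**
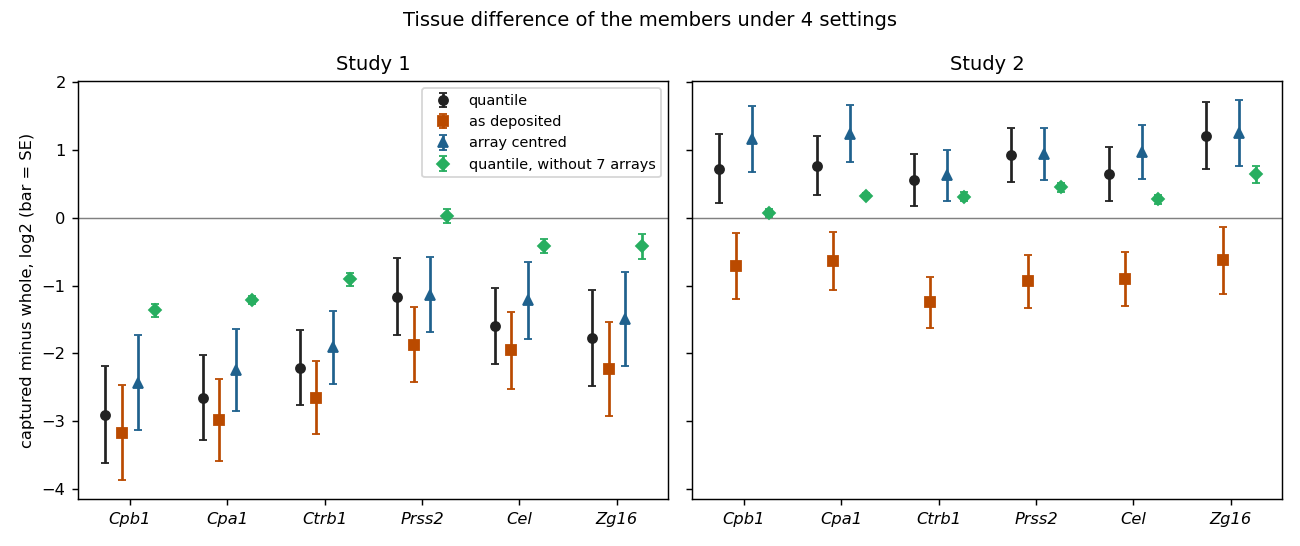
Captured minus whole (y axis, log2, bar = SE) for each member in study 1 and study 2 under 4 settings: quantile-normalized, as deposited, each array centred on its median, and quantile-normalized without the 7 arrays with raised members. Study 1 estimates lie below 0 apart from Prss2 without the 7 arrays (0.03), and study 2 estimates are below 0 as deposited and above 0 otherwise.

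A sign of RNA length differed between the same groups, while RNA length itself was not measured. The 3′ minus 5′ control difference was 4.49 ± 0.68 (SD, n = 25 arrays) in captured and 3.19 ± 0.36 (n = 12) in whole arrays of study 1, and 4.14 ± 0.90 (n = 30) and 1.61 ± 0.13 (n = 15) in study 2. With it as a covariate 4 of 6 members were lower in study 1 and 0 passed in study 2. Of all 12394 genes, 5971 and 5170 passed there in either direction. The covariate nearly coincides with tissue type in study 2, where the SE for Cpb1 was 1.47 with it and 0.51 without. The 0 therefore cannot decide whether the members differ. Specimen 16 was at 3.33, array 1 of specimen 4687 at 3.03 and specimen 3 at 3.34 and 3.74, beside 2.65 to 3.62 in the other 8 whole arrays of study 1; array B of specimen 3 lay above these. The part of the 3′ minus 5′ control difference in the members' values was not tested beyond the covariate.

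Days after pristane were compared within each set, on the values as deposited, to follow granuloma growth. None of 6 members passed limma's F test over days in any set: captured study 1, where 0.347% of all genes passed; whole study 1, where 0.0242% did; captured study 2, where 9.75% did; and whole study 2, where 17.9% did. At an unadjusted p under 0.05 the count was also 0 in each set. The fit takes 1 spread for each gene from all 19 groups, so the raised specimens widen it for every set. In the sets without a raised array, the lowest unadjusted p of limma's F test was 0.972 (captured, study 1) and 0.971 (whole, study 2). The counts of 0 there cannot decide whether the members changed by less than that spread. The lowest adjusted p was 0.213, for Zg16 in captured cells of study 2. Raised arrays came from days 7, 33 and 104 in study 1 and days 7 and 49 in study 2, and at none of these days were all specimens raised. At day 104 of study 1, which has 1 specimen, only the first whole array was raised and the specimen average was not.

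In the captured cells of study 1 the members were low at every day. Cpb1 averaged 3.43 ± 0.23 (SD, n = 4) at day 7, 3.60 ± 0.14 (n = 4) at day 17, 3.65 ± 0.15 (n = 3) at day 33 and 3.40 ± 0.11 (n = 3) at day 46, and was 3.71 in the 1 specimen of day 104. In study 2 whole sections Cpb1 was 4.79 ± 0.15 at day 7, 4.98 ± 0.18 at day 17, 4.92 ± 0.41 at day 33, 4.61 ± 0.09 at day 49 and 4.89 ± 0.24 at day 105 (SD, n = 3 each). In captured cells of study 2, day 7 had the widest spread, 6.01 ± 4.29 (n = 3), set by specimen 1, beside 3.35 ± 0.09 (n = 3) at day 33.

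As a list, the 32 other acinar genes had 3 higher and 6 lower in captured cells of study 1 and 10 higher and 2 lower in study 2, where 31.7% and 35.6% of all genes were higher and 23.2% and 30.2% lower. Their median differences were -0.31 and 0.41, beside 0.09 and 0.05 over all genes; the members' medians were -1.99 and 0.75. Amy1 was lower in captured cells of both studies, by 4.31 and 3.96 log2 units (limma, adjusted p = 8.95e-09 and 6.52e-12), as was Gatm, which encodes an enzyme of creatine synthesis, by 1.45 and 2.02. Cela1 was lower in study 1 by 1.93 (adjusted p = 0.00165), and Aqp8, a water channel, was higher there by 2.24 (4.54e-16).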

How the data were processed

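Whole granuloma sections and captured cells were hybridised to Affymetrix arrays after amplification. Per the submitters' processing notes, RMA in Partek gave the deposited log2 values (versions not given in the sources used here); array medians differ between study and tissue type. Gene names came from the platform annotation, and 20393 of 22690 probe sets had 1 gene, 691 several and 1606 none listed; 20364 were matched by gene identifier. Where a gene had several, the one brightest on average stood for it. The members and lists were chosen with earlier results of these data known.

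Arrays of 1 code and tissue type were averaged (53 averages, 33 codes). Tests used limma 3.58.1 in R 4.3.3 (lmFit, eBayes, 19 groups, 34 residual degrees of freedom), with the code as a random block (correlation 0.092 over genes), no filter on low values and an adjusted p threshold of 0.05. Pairing comes from the codes that tissue types share (5 in study 1, 15 in study 2). Tissue comparisons used quantile normalization, and days the deposited values. Tested on simulated data for captured against whole in study 2 (12394 genes), the fit recovered 97% of log2 changes of 1 and 100% of changes of 2. Recovery was not tested separately for the members. Their SEs in study 2 ran from 0.39 to 0.51, and Cpa1, at 0.77, did not pass.

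Named genes were the members, up to 4 genes of each list with the largest tissue difference, and the 10 genes most like the members' mean; other genes named on raised arrays were chosen after their values were seen. Promoter sequences came from RefSeq.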

Additional observations from a re-analysis of the deposited data

Results flagged for a closer look

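The difference between tissue types itself differed between the studies for 6 of 6 members, by a test of the interaction: 3.53 log2 units for Cpb1, 3.49 for Cpa1, 2.90 for Ctrb1, 2.04 for Prss2, 2.31 for Cel and 2.96 for Zg16 (quantile-normalized, study 2 minus study 1). Over the 8 whole specimens of study 1, which span several days, specimen 16 of day 33 stood far from the others for 10 of the 11 member probe sets: Cpa1 at 11.75, Ctrb1 at 11.37, Prss2 at 11.39, 9.85, 11.70 and 12.18 by its 4 probe sets, Cel at 10.38 and Zg16 at 11.88, 7.70 and 9.76 by its 3. Cpb1, at 12.28, did not pass that rule. In groups of 4 specimens, 2 values stood apart at low levels, both in captured cells of day 17 in study 1: Cpa1 at 3.63 in specimen 11 and Zg16 at 3.69 by 1428358_at in specimen 12. The rule was applied to 33 groups of values, and chance flags about 1 in 20. The 11 probe sets of specimen 16 were read on 1 array, so their flags are not separate observations. That specimen was already picked out by these values, so the flags add no test of it. Specimen 4687 entered as the average of its 3 arrays (Cpb1 6.90).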

How the results depend on the processing

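Direction in study 1 held for all members under every alternative run except Prss2 without the 7 arrays; calls did not. Calls without the 7 arrays are not counted here, since the members' own values chose those arrays. Their removal narrowed the members' spread, with an SE for Cpb1 in study 1 of 0.72 with them and 0.09 without. Lower members in study 1 (5) fell to 3 with centred arrays and with the specimen as a fixed replicate block. Leaving out 1 code gave 3 to 6, the 3 without specimen 3 of day 7. Higher members in study 2 (2) came to 5 with centred arrays, 1 with no replicate block, 0 as deposited, 0 with the 3′ to 5′ difference as a covariate and 1 without the day 49 array. Leaving out 1 code gave 0 to 4. The study 2 codes whose loss changed that count were 1 of day 7, 1, 2 and 3 of day 17, 1, 2 and 3 of day 33, 2 of day 49 and 1 and 2 of day 105, with study 1 code 16 of day 33. Lower members in study 2 (0) came to 3 as deposited. Members larger in study 2 than in study 1 (6) came to 3 as deposited and 2 with the covariate. Leaving out 1 code gave 5 to 6, and the fixed replicate block 5. No member passed over days under any alternative.

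Reversed in study 2 as deposited were Cpb1 (-0.71), Cpa1 (-0.63), Ctrb1 (-1.25), Prss2 (-0.94), Cel (-0.90) and Zg16 (-0.63), and without the 7 arrays as deposited -1.32, -1.09, -1.53, -1.39, -1.31 and -1.19. With the covariate Cpa1 (-0.22), Ctrb1 (-0.82) and Cel (-0.18) reversed. In study 1, Prss2 reversed without the 7 arrays (0.032). Between studies, without the 7 arrays as deposited, Ctrb1 (-0.17), Prss2 (-0.68), Cel (-0.60) and Zg16 (-0.34) reversed. The cause was not tested. Specimens with a raised member numbered 2 of 8 in study 1 whole, 1 of 15 in study 2 captured and 0 of 15 in study 2 whole; these came to 1 at 3 log2 units, 2 at 1 unit and 1 at 1 unit, and to 4 and 3 counted over arrays in the first and second. Removing the 7 arrays, the day 49 array and counting arrays were chosen after seeing the data. Low values have no firm order, and the small number of study 1 whole specimens, 8, limits its comparisons.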

Other observations

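Adipocyte and smooth muscle transcripts gave tissue differences that kept 1 direction in both studies. In captured cells all 7 adipocyte genes and all 9 smooth muscle genes were lower in both studies, where 23.2% and 30.2% of all genes were lower, with Thrsp lower by 5.40 and 4.55 log2 units and Myh11, the smooth muscle myosin heavy chain, by 5.16 and 4.36 (limma, quantile-normalized, study 1 then study 2). Krt19, a keratin of duct epithelium and mesothelium, was lower by 2.73 and 2.93. It is 1 of 10 duct genes, of which 4 passed as lower in each study, with 2 and then 3 as higher. Stomach genes did not keep 1 direction. Of these 9, 7 passed as higher for study 1 and 0 for study 2, where 2 passed as lower. Among plasma cell genes 4 of 9 were higher in study 1 and 6 of 9 in study 2, where 31.7% and 35.6% of all genes were higher, with Slamf7 higher by 1.48 and 1.46 and Eaf2 by 1.22 and 2.19.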
